A study of Mus musculus with 31 samples.

Results

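The genes described here are 40 interferon-stimulated antiviral genes of the mouse. They were taken from a fixed list of symbols, and all 40 matched 1 of the 29120 Ensembl gene IDs in the count files. No measured value or threshold entered the rule, but the list was chosen with earlier results of these data known. By role it holds 5 genes for a ligand and sensors of foreign nucleic acid, 17 for RNA-binding and other antiviral effectors, 5 for ISG15 and ubiquitin-type modification, 4 for ADP-ribosylation, 3 for PML nuclear bodies and 6 others.

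By its title the series concerned the regulation of GPR34 expression. It compared C57BL/6 wild-type mice with Gpr34 knockout mice by RNA sequencing of total RNA. Dendritic cells, which take up and present antigen, were grown for 10 days from the marrow of male mice aged 8 to 16 weeks, in medium conditioned by GM-CSF-secreting X63 cells, and were reseeded without serum. They were sequenced naive or after 8 h with LPS, a component of the bacterial outer membrane that is sensed by TLR4, giving naive wild-type, naive knockout-labelled, LPS wild-type and LPS knockout-labelled groups of 3 libraries each. Whole spleens, labelled naive, came from mice aged 12 weeks, 10 wild-type and 9 knockout. The labels do not say how the Gpr34 allele was made, or whether the libraries of a group came from separate mice, so a p-value here measures the spread between these libraries, which may be partly technical.

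A dendritic cell library had a total count between 38998746 and 74164853, a spleen library between 56834377 and 133277070. Wild-type cells had 199 to 324 counts of Gpr34 itself when naive and 65 to 125 with LPS. Among the libraries labelled knockout it held 0, 120 and 4 counts in naive replicates 2, 3 and 4. In LPS replicates 2, 3 and 4 it held 0, 117 and 104, so 3 of 6 had over 100 counts and their label is in doubt. The 117 and 104 lie within the LPS wild-type range. The 120 lies below the naive wild-type range, although that library had the largest total count of the dendritic cell libraries. All 6 are called knockout-labelled throughout. The genotype differences of the members described in detail are also given without the 3 libraries over 100 counts. Knockout spleens had 42 to 156 Gpr34 counts, all below the 308 to 986 of wild-type spleens. Of 8 dendritic cell markers, all 8 had counts in naive wild-type cells, with a summed level of 11311 to 13222 CPM (reads scaled to a common library size). Macrophage markers were also present there, at 1139 to 1324 CPM over 6 genes, while the erythroid marker Hba-a1 was at 0.

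Type I interferons such as interferon beta are secreted by cells that sense viral nucleic acid or bacterial LPS. They bind a receptor made of IFNAR1 and IFNAR2, and the kinases JAK1 and TYK2 then activate STAT2, which acts with IRF9 in a complex that binds the interferon-stimulated response element (ISRE) in front of target genes. The products of those genes sense viral RNA, degrade it, block its translation or hold back virus release, and several of them are sensors that feed further interferon production.

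Promoter sequences of members are shown because the ISRE is the element through which the pathway is known to act. RefSeq windows of 300 bases (250 before to 50 after an annotated gene start, build GRCm38.p6) matched 30 of the 40 members. The ISRE core was searched on both strands as GAAANNGAAA, and matches may overlap each other. It was found in 12 of the 30 members (40%), against 1079 of 27025 genes with such a window (3.99%). The 12 were Bst2, Ddx58, Eif2ak2, Ifih1, Ifit1, Ifit3, Isg15, Oas1a, Oas3, Phf11b, Rsad2 and Trim30a. A match is a stretch of letters and not a shown binding site. Below stand the 250 bases before the gene start, read along the gene's strand, of 4 members that hold the core and rose far after LPS, and of Samhd1, the member with the smallest rise, whose window holds none. Capitals mark matches to the core on either strand.

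Isg15, chr4:156200819-156201068, minus strand: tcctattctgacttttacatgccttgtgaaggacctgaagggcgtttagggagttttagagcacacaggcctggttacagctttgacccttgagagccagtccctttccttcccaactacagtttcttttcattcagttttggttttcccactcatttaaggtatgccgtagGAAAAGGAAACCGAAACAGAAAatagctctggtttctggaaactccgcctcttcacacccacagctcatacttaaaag

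Ifit1, chr19:34640639-34640888, plus strand: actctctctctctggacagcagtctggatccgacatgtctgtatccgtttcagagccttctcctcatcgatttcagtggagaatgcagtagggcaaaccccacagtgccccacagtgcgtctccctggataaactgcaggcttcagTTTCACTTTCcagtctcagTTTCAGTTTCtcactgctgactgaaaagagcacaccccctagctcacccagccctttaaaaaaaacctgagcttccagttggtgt

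Ifit3, chr19:34583279-34583528, plus strand: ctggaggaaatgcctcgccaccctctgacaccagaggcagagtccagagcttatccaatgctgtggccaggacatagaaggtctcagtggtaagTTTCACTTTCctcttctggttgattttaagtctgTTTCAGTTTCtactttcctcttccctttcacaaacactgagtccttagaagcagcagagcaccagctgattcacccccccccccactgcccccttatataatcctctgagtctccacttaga

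Rsad2, chr12:26456453-26456702, minus strand: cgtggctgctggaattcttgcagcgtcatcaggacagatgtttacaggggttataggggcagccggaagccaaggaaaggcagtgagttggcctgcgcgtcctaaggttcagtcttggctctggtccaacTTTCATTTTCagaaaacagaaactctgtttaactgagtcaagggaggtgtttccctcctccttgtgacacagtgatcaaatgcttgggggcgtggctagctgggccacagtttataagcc

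Samhd1, chr2:157135097-157135346, minus strand: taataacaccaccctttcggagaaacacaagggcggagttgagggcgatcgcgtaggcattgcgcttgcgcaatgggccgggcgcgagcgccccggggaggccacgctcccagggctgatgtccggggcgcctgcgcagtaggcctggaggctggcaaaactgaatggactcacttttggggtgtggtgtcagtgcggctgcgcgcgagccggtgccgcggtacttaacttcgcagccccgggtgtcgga

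Isg15 holds 3 overlapping matches that start 78, 72 and 66 bases before the gene start, Ifit1 and Ifit3 hold 2 separate ones each, and Rsad2 holds 1. The STAT site, TTCNNNGAA on both strands, was found in 8 of the 30 members (26.7%) against 9.55% of genes, and Samhd1 is one of the 8. In 1 member, Bst2, matches to the 2 motifs overlapped. The median log2 fold change after LPS in wild-type cells, described further on, was 2.58 in the 12 members with the ISRE core and 2.42 in the 18 without, over ranges that overlap.

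Before LPS the members already differed widely in level. Per kb of exon, the scale on which genes can be compared, naive wild-type cells held most of Samhd1, which breaks down the nucleotides that viruses need, at 243 ± 15.6 CPM per kb (SD, n = 3). Next came Bst2, which tethers budding virus to the cell, at 164 ± 9.23, Mx1, a dynamin-like antiviral GTPase, at 151 ± 13.3, and the nuclear body gene Sp100 at 122 ± 5.96 CPM per kb. The bottom of the order was Ifnb1 at 0.0291 ± 0.0504, Ifi44 at 0.585 ± 0.206, Ifit2 at 0.658 ± 0.122 and Cmpk2 at 0.798 ± 0.243 CPM per kb. The neighbours Bst2 and Mx1, and likewise Ifi44, Ifit2 and Cmpk2, lay within their spread of each other. The median member stood at percentile 76.6 of the tested genes with an exon length, and 9 of 40 stood above the 90th percentile.

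After LPS the median member of wild-type cells stood at percentile 95 and 29 of 40 stood above the 90th. Isg15, a ubiquitin-like protein that is coupled to other proteins, moved from place 17 to place 1 among the members, at 545 ± 24.1 CPM per kb. Bst2 at 511 ± 77.1, Mx1 at 479 ± 9.64 and Samhd1 at 476 ± 35.7 CPM per kb followed and overlapped in their spread. Bst2 also overlapped with Isg15, so place 1 is not fixed. Rsad2 moved from place 34 to place 7. In the plot of levels per exon length, all 40 members lie above the line of equal levels, and Rsad2, which went from 3.14 to 222 CPM per kb, lies farthest above it.

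**Figure D1:**
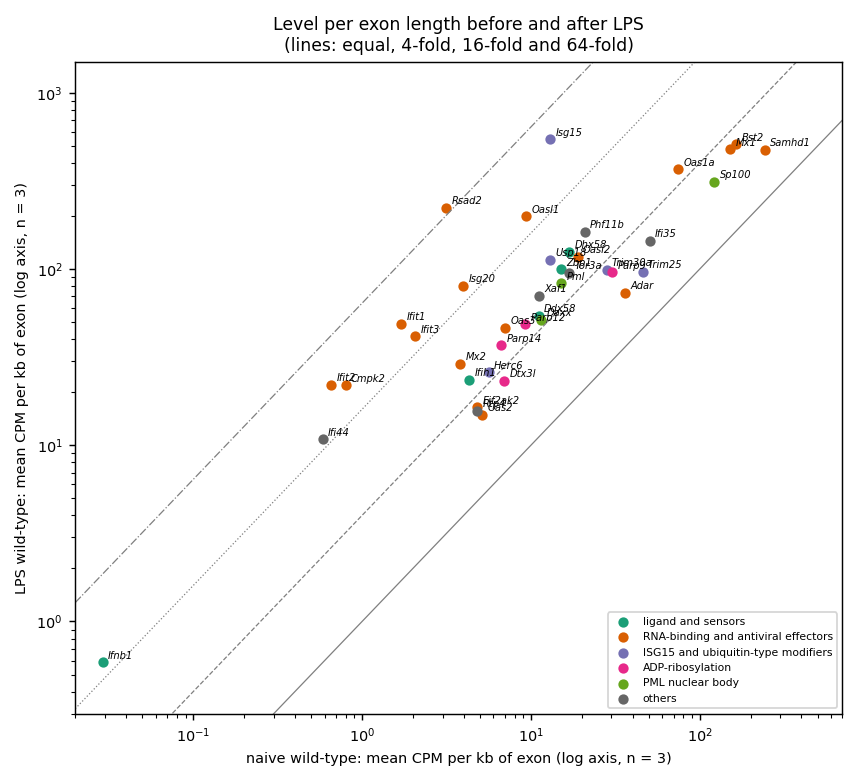
Mean level per kb of exon in naive (x axis) and LPS-treated (y axis) wild-type dendritic cells, both in CPM per kb on log axes, 1 point per member coloured by role, with lines at equal, 4-fold, 16-fold and 64-fold levels. Isg15 lies at 545 CPM per kb after LPS from 13 before, while Samhd1, highest before at 243, lies at 476.

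LPS raised all 40 members in wild-type cells and all 40 in knockout-labelled cells, comparisons that share no library but come from 1 fit. Of all 16965 tested genes 18.1% were called higher and 15.8% lower in wild-type cells, and 15.3% higher and 13.4% lower in knockout-labelled cells (edgeR quasi-likelihood test, Benjamini-Hochberg adjusted p under 0.05). The median log2 fold change of the members was 2.46 in wild-type and 2.50 in knockout-labelled cells, against −0.03 and −0.02 over all tested genes. For each of the 40, the 3 LPS libraries lay wholly above the 3 naive ones in both genotypes, as 25.6% and 21.3% of all tested genes did. With plain library sizes in place of composition factors the median of all genes shifted to −0.44 and −0.35, and that of the members was 2.05 and 2.17, with the same 40 called. Summed marker levels moved with LPS in wild-type cells as well. The 8 dendritic cell markers summed to between 11311 and 13222 CPM in naive and between 17583 and 20390.2 CPM in LPS libraries, with Cd209a at 0 after LPS. The 6 macrophage markers summed to between 1139 and 1324 CPM before and between 1557 and 2253 CPM after LPS. They include the LPS co-receptor gene Cd14, which alone had 35.4 to 49.7 CPM before and 423 to 713 CPM after. The 4 red pulp macrophage markers summed to between 41.1 and 44.7 CPM before and between 131 and 237 CPM after, with Cd163 at 0 after LPS. Their part in the members' change was not tested. In bulk RNA, fewer or more cells of a type and less or more RNA per cell cannot be told apart.

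**Figure D2:**
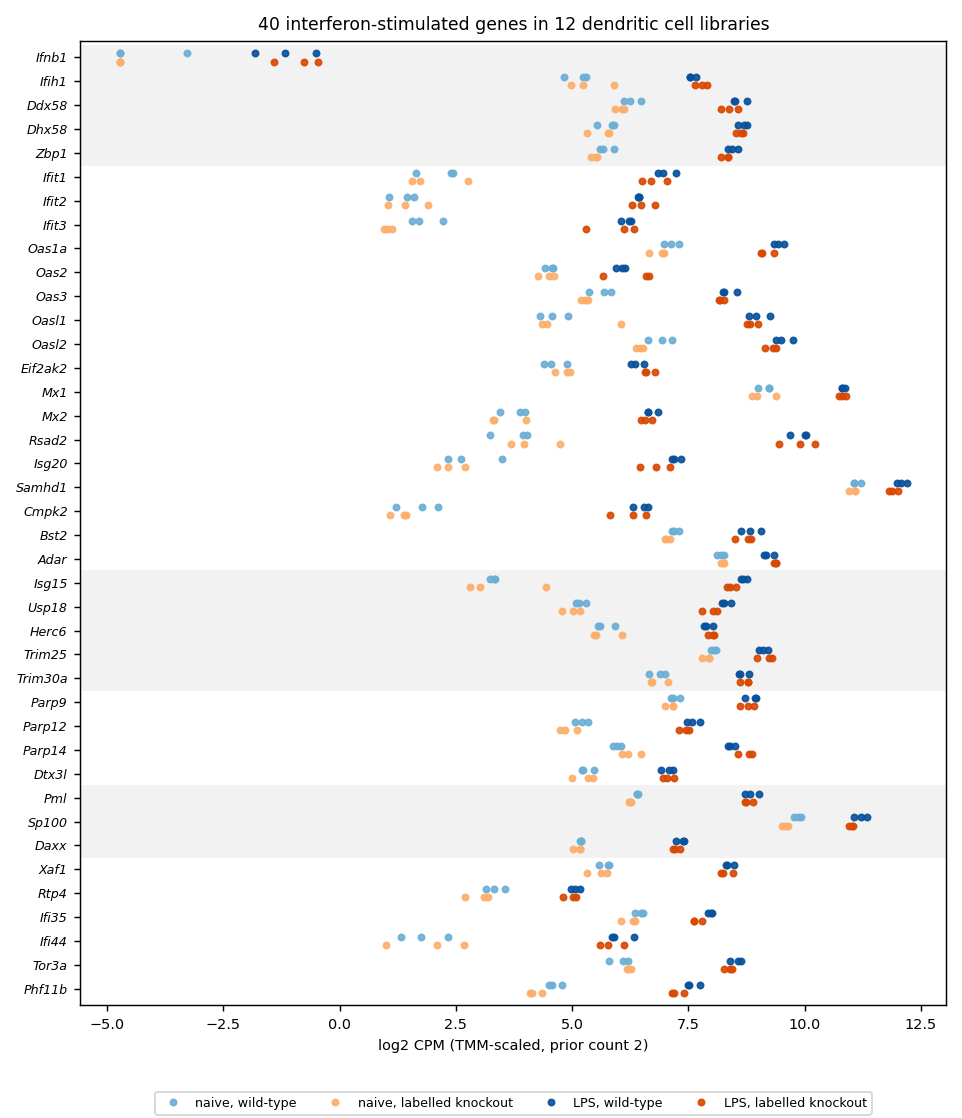
Level of each of the 40 members (rows, banded by role in the order of the text) in the 12 dendritic cell libraries, as log2 CPM with a prior count of 2. Each point is 1 library. The dark LPS points lie to the right of the pale naive points in every row, by least in Samhd1 and Adar.

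Among the ligand and sensors all 5 rose. Ifnb1, which encodes interferon beta (chr4:88522025-88522774, GRCm38), held 0, 4 and 0 counts in the naive wild-type libraries and 9, 18 and 22 after LPS. In knockout-labelled libraries it held 0, 0 and 0 counts, then 27, 17 and 26. The groups do not overlap, but the counts are so few that the fold is imprecise. The wild-type means stand in a ratio of 21.9 on 4 naive counts, with a fitted log2 fold change of 4.24 (SE 1.17, edgeR adjusted p = 0.0209). This call was lost without naive replicate 1 or 4, without LPS replicate 3, and with the replicate number as a block in the fit. In knockout-labelled cells the LPS mean stood 32.8-fold above a floor of 3 counts in the naive group together (edgeR adjusted p = 0.00524). This fold leaves out the error of the LPS mean and takes counts as independent.

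The RNA sensor genes Ifih1 (MDA5) and Ddx58 (RIG-I), their relative Dhx58 (LGP2) and Zbp1, a sensor of Z-form nucleic acid, had log2 fold changes of 2.30 to 2.90 in wild-type cells. Dhx58 stood at 60.3, 46.2 and 58.2 CPM in naive and 431, 381 and 417 CPM in LPS wild-type libraries. Zbp1 had the smallest error of the 4, with a log2 fold change of 2.73 (SE 0.10).

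Among the 17 effectors all 17 rose, with log2 fold changes from 0.97 to 6.14 and a median of 2.72 in wild-type cells. Rsad2 (viperin), a radical enzyme that makes a chain-terminating nucleotide (chr12:26442746-26456452, minus strand), rose furthest. It stood at 15.3, 9.39 and 16.2 CPM in naive and 1036, 818 and 1034 CPM in LPS wild-type libraries, a log2 fold change of 6.14 (SE 0.36, edgeR adjusted p = 1.08e-06). Its neighbour Cmpk2, a nucleotide kinase gene, lies on the other strand (chr12:26469204-26479837). Cmpk2 went from 4.30, 2.27 and 3.4 to 99.8, 79.1 and 94.0 CPM, or 4.77 in log2 (SE 0.27, edgeR adjusted p = 8.88e-07). All LPS libraries of this pair lie far above all naive ones.

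The 3 IFIT genes, whose products bind viral RNA or block its translation, lie together on chromosome 19. Ifit2 went from 3.00, 2.06 and 2.68 CPM to 87.1, 86.8 and 85.3 CPM, a log2 fold change of 5.06 (SE 0.24, edgeR adjusted p = 3.46e-07). Ifit1 went from 5.35, 3.09 and 5.19 to 151, 115 and 124 CPM, or 4.84 in log2 (SE 0.35, adjusted p = 4.47e-06). The LPS values of Ifit2 are within a few percent of each other, whereas its naive values rest on a low level. Ifit3 had 4.34 (SE 0.27). A near-identical copy of Ifit3 exists, so its share of reads that match both is uncertain. The same holds for the Oas1, Phf11, Trim30 and Sp100 families.

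The OAS genes make a messenger that activates RNase L, or are inactive relatives of the enzyme. They spanned 1.53 (SE 0.22) for Oas2 to 4.41 (SE 0.43) for Oasl1, with Oas1a at 2.31, Oasl2 at 2.64 and Oas3 at 2.72. Isg20, a 3′ exonuclease, had 4.33 and Mx2 2.93, while Mx1 had 1.67 from a naive level already among the highest. C57BL/6 mice are known to carry defective Mx1 and Mx2 alleles, so these values concern the RNA only. Eif2ak2 (PKR), the kinase that stops translation on double-stranded RNA, had 1.78, and Bst2 had 1.64.

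The smallest changes were those of Adar, which edits adenosine in double-stranded RNA, and Samhd1. Adar stood at 295, 277 and 308 CPM in naive and 651, 560.3 and 573 CPM in LPS wild-type libraries, a log2 fold change of 1.02 (SE 0.08, edgeR adjusted p = 5.28e-06). Samhd1 stood at 2132, 2389.5 and 2156 CPM and then at 4708, 4301 and 4062 CPM, with 0.97 (SE 0.09, adjusted p = 1.82e-05). Although small in fold, both differences exceed the spread of the libraries, and in CPM the rise of Samhd1 is the largest of the members named here. Of the exons of Adar 16.8% overlap Chrnb2 on the other strand, and the use of strand is not given in the sources used here.

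Among the ISG15 and ubiquitin-type genes all 5 rose. Isg15 (chr4:156199424-156200818) went from 10.1, 9.41 and 10.0 CPM to 432, 396 and 408 CPM, a log2 fold change of 5.39 (SE 0.39, edgeR adjusted p = 4.73e-06). Usp18, the protease that removes ISG15 and dampens receptor signalling, had 3.12, and Herc6, the mouse ligase that attaches ISG15, had 2.21. Trim25, a ubiquitin ligase acting on RIG-I, stood at 274, 266 and 253 CPM and then at 596, 552 and 515 CPM, with 1.07 (SE 0.10, adjusted p = 1.80e-05). Trim30a had 1.81.

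The 4 ADP-ribosylation genes were closer together, from 1.67 for Parp9 to 2.47 for Parp14. Parp9 and Dtx3l, whose proteins act as a pair, are head to head on chromosome 16 and share 9.4% and 8.0% of their exon bases on opposite strands. Their log2 fold changes were 1.67 (SE 0.11) and 1.75 (SE 0.13). The nuclear body genes Pml, Daxx and Sp100 had 2.46, 2.16 and 1.36. Of the others, Ifi44 had 4.20, Phf11b 2.97, Xaf1 2.66, Tor3a 2.49, Rtp4 1.71 and Ifi35 1.53.

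**Figure D3:**
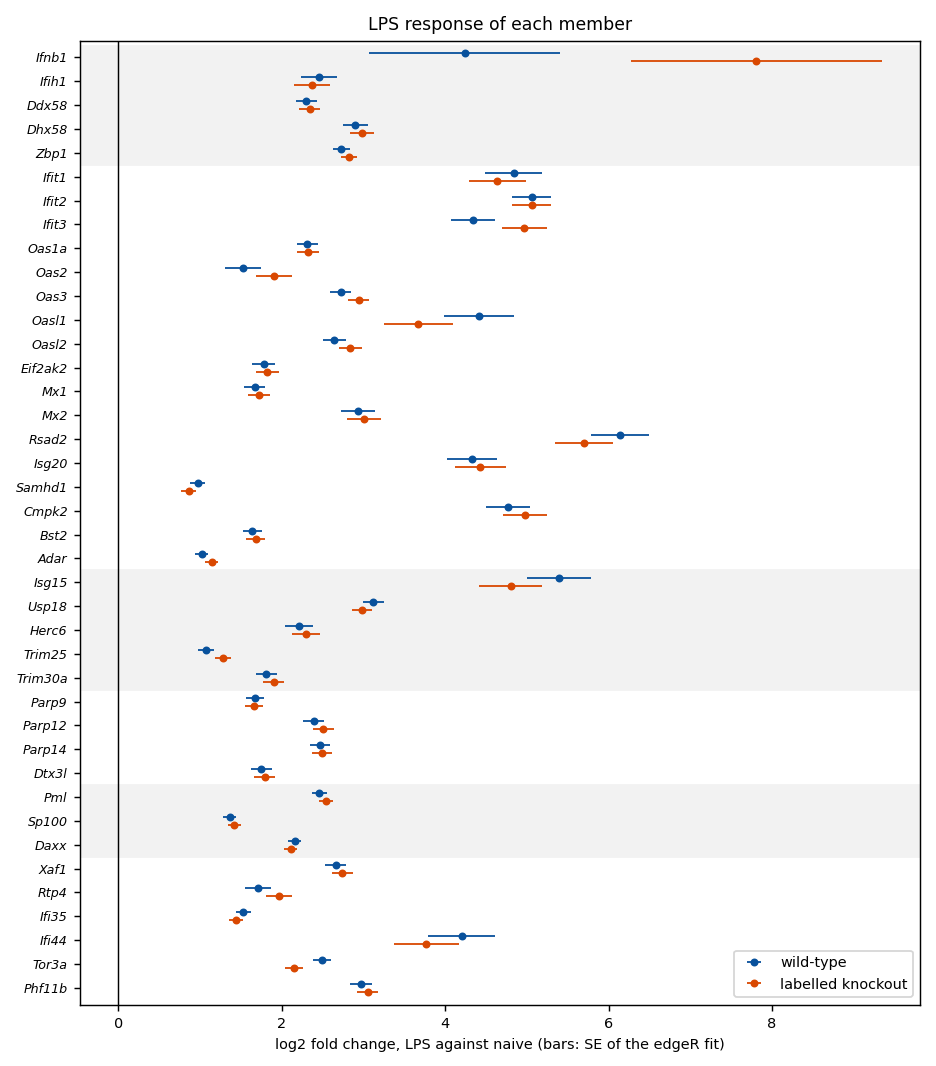
Log2 fold change of LPS against naive cells for each member (rows, banded by role), in wild-type and knockout-labelled dendritic cells, with the SE of the edgeR fit as bars. All 80 points lie above 0, from 0.86 for Samhd1 in knockout-labelled cells to 7.81 for Ifnb1, whose bars are the widest.

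In knockout-labelled cells the largest fitted changes, apart from that of Ifnb1 over a naive group at 0 counts, whose place in the order is not fixed, were those of Rsad2, Ifit2, Cmpk2 and Ifit3. Rsad2 stood at 12.9, 26.4 and 15.7 CPM in naive and 955, 699 and 1205 CPM in LPS libraries, a log2 fold change of 5.70 (SE 0.35, edgeR adjusted p = 1.68e-06). Ifit3 went from 1.99, 2.15 and 1.89 to 69.7, 39.1 and 80.6 CPM, with 4.97 (SE 0.28, adjusted p = 1.03e-06). Ifit2 and Cmpk2 had 5.06 and 4.98. The 3 smallest were again Trim25 at 1.28, Adar at 1.14 and Samhd1 at 0.86. LPS replicate 3 was the lowest of the 6 LPS libraries in 24 of the 40 members, as it was in 19.7% of all tested genes. LPS wild-type replicate 1 was the highest in 20 of 40, against 18.3% of all genes. Beside this, the summed level of the 6 macrophage markers was 1218 CPM in that knockout-labelled replicate 3 and 1557 to 2347 CPM in the other LPS libraries, and its part in the members' levels was not tested.

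Of 48 other pathway genes 35 had an ID in the files and 31 could be tested in dendritic cells. After LPS 21 rose and 5 fell in wild-type cells, where 18.1% of all tested genes were called higher and 15.8% lower. In knockout-labelled cells 20 rose and 4 fell, against 15.3% and 13.4% of all tested genes. Among those with the smallest p in wild-type cells were the signal carrier Stat2, with a log2 fold change of 1.80 (SE 0.08), the transcription factor Irf7 with 4.15 (SE 0.22), and the LPS co-receptor Cd14 with 3.70 (SE 0.25). The largest of their edgeR adjusted p-values was 2.39e-06. Irf7, which drives interferon genes, stood at 160.1, 110.2 and 189.9 CPM before and 2940.3, 2301 and 2923 CPM after LPS in wild-type cells. Those that fell in wild-type cells were the LPS receptor Tlr4, the signalling adaptors Mavs and Tmem173 (STING), Irf3 and the interferon gamma receptor gene Ifngr1. Irf7 is also 1 of 8 listed markers of plasmacytoid dendritic cells, which are known for high interferon output. Those 8 summed to between 197 and 262 CPM in naive and between 2511 and 3172 CPM in LPS wild-type libraries. Without Irf7 the other 7 summed to between 68.5 and 86.5 CPM before and between 165 and 231 CPM after LPS. Of these Tcf4 had 47.5 to 61.3 CPM before and 157 to 222 CPM after, whereas Pacsin1 fell, from 16.1 to 21.9 CPM before to 6.75 to 11.7 CPM after. Siglech was at 0 in all 6 LPS libraries and at most 0.134 CPM in naive ones. Ccr9, Ly6d, Cox6a2 and Klk1 reached at most 1.90 CPM in any dendritic cell library. The part of such cells in the members' levels was not tested. Of the other ligands, Ifna4 held 10 and 9 counts in 2 LPS wild-type libraries and 6 and 2 in 2 LPS knockout-labelled ones.

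No member was called different by genotype in naive or in LPS-treated dendritic cells. By edgeR, by DESeq2 and by limma voom 0 of 40 were called in either state, and of all tested genes 0% were called by edgeR in either state. DESeq2 called 0.448% of all genes in naive and 2.19% in LPS cells, and limma voom 0.00589% and 0%. At an unadjusted p under 0.05 there were 11 members in naive cells (1139 of all genes) and 6 after LPS (1914 of all genes). The median log2 difference, knockout-labelled minus wild-type, was −0.14 in naive and −0.13 in LPS cells, and 29 of 40 were negative in each. Over all 16965 genes the medians were 0.00 and −0.01, with 8343 and 8773 negative. Without the 3 libraries that hold Gpr34 counts the member medians were −0.22, with 33 of 40 negative, and −0.13, with 29 negative. The 2 comparisons share no library with each other, but both share theirs with the LPS comparisons.

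Without a test, the groups of some members did not overlap. In naive cells the knockout-labelled libraries lay wholly below the wild-type ones in 10 members, against 6.48% of all tested genes, and wholly above in 1, against 6.59%. After LPS they lay below in 8, against 8.57%, and above in 3, against 8.97%. In both states they lay below in 5 members (Ifi35, Oasl2, Phf11b, Sp100 and Zbp1), against 1.03% of genes, and above in 1 (Parp14), against 1.77%. For 2 of the 5 the LPS groups all but touch. The lowest wild-type and the highest knockout-labelled library both stood at 666 CPM for Oasl2 and at 328 CPM for Zbp1. With plain library sizes the numbers below were 13 in naive cells, against 8% of genes, 5 after LPS, against 5.85%, and 2 in both (Ifi35 and Phf11b), against 0.955%. The numbers above were 0 in naive cells, against 5.41%, 4 after LPS, against 11.2%, and 0 in both, against 1.77%, so the pattern of Parp14 in naive cells depends on the scaling.

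Phf11b (chr14:59320964-59341351), a PHD finger gene, had the smallest p in naive cells. It stood at 22.6, 23.6 and 27.6 CPM in naive wild-type and 20.5, 17 and 17.6 CPM in naive knockout-labelled libraries, a log2 difference of −0.42 (SE 0.12, edgeR adjusted p = 0.617). After LPS it stood at 215, 181 and 182 CPM against 142, 147 and 169 CPM, with −0.34 (SE 0.12, adjusted p = 0.332). The 2 groups are separate in each state, by little against their spread. Without the 3 libraries that hold Gpr34 counts the values were −0.37 and −0.46.

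Ifi35 (chr11:101448407-101458698), whose product binds other interferon-induced proteins, had the smallest p after LPS. It stood at 254, 243 and 256 CPM in wild-type and 222, 198 and 198 CPM in knockout-labelled LPS libraries, with −0.29 (SE 0.09, edgeR adjusted p = 0.293). In naive libraries it stood at 91.7, 88.7 and 81.5 against 81.4, 79.1 and 66.9 CPM. The naive groups all but touch, since the lowest wild-type and the highest knockout-labelled library lie together. Of its exons 16.8% overlap the predicted gene Gm11626 on the other strand. Without the 3 libraries with Gpr34 counts the value was −0.20 (SE 0.12) after LPS, and in naive cells it was −0.24 (SE 0.10) against −0.20 (SE 0.09) with them.

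Parp14, an ADP-ribosyltransferase gene (chr16:35832874-35871544), was the member that lay higher in knockout-labelled libraries in both states. It stood at 66, 58.3 and 62.2 against 67.8, 89.3 and 73.6 CPM in naive cells and at 337, 365 and 329 against 449, 378 and 468 CPM after LPS. The log2 differences were 0.31 (SE 0.12, edgeR adjusted p = 0.722) and 0.33 (SE 0.12, adjusted p = 0.333). Without the 3 libraries with Gpr34 counts they were 0.18 (SE 0.08) and 0.36 (SE 0.10). Oasl2 and Sp100 had the next smallest p in naive cells. Oasl2 stood at 141, 98.4 and 122 against 82.5, 87.8 and 92.1 CPM (−0.46, SE 0.13, edgeR adjusted p = 0.617). Sp100 stood at 963, 874 and 927 against 758, 727 and 801 CPM (−0.27, SE 0.08, adjusted p = 0.620). Neither passed the test, and without the 3 libraries the values were −0.47 for Oasl2 and −0.24 for Sp100.

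**Figure D4:**
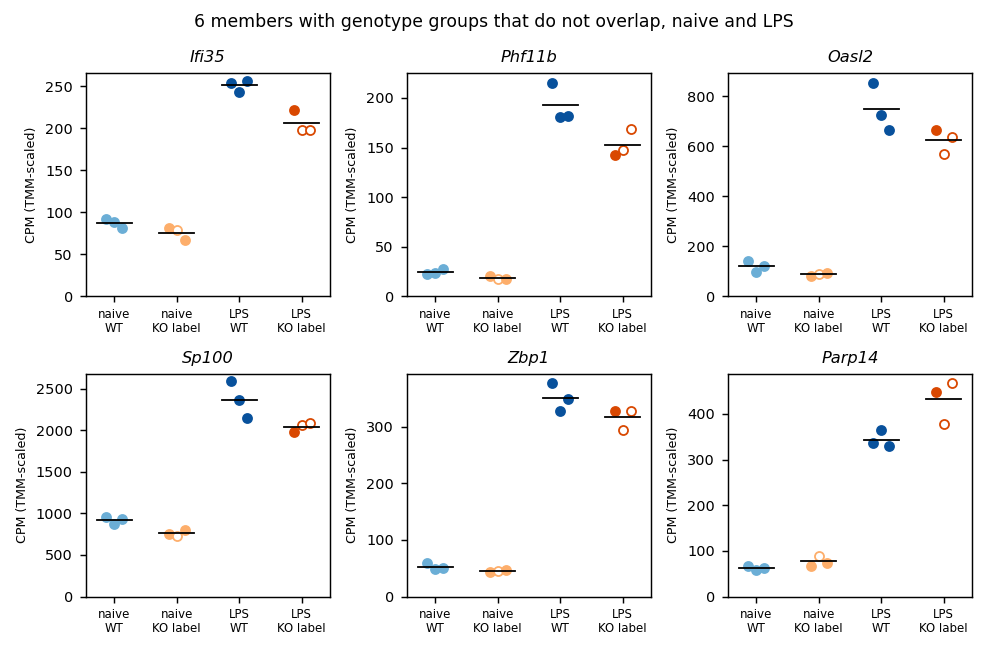
CPM of 6 members in the 4 dendritic cell groups. Each point is 1 library, open points are the 3 knockout-labelled libraries with over 100 Gpr34 counts, and lines are group means of 3 libraries. With composition factors the groups within a state do not overlap, but they all but touch in naive Ifi35 and in LPS Oasl2 and Zbp1. Parp14 lies higher and the others lower in knockout-labelled libraries. With plain library sizes only Ifi35 and Phf11b keep this in both states. The shift with LPS is far larger than the shift with genotype.

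No member's LPS response was called different between genotypes. By edgeR, DESeq2 and limma voom 0 of 40 interaction terms were called, against 0%, 0.124% and 0% of all tested genes, and 1 member had an unadjusted edgeR p under 0.05 (678 of all genes). That was Tor3a, an ATPase of the endoplasmic reticulum, which stood at 68.7, 55.3 and 73.2 CPM in naive and 393, 335 and 380.1 CPM in LPS wild-type libraries. In knockout-labelled libraries it stood at 72.7, 73.8 and 77.4 and then at 344, 309 and 339 CPM, a difference of log2 responses of −0.34 (SE 0.15, edgeR adjusted p = 1), or −0.31 without the 3 libraries with Gpr34 counts. The next smallest p belonged to Ifnb1 (3.56, SE 1.79), on the few counts above, and Ifit3 (0.63, SE 0.35). Apart from Ifnb1 the interaction values ran from −0.74 for Oasl1 to 0.63 for Ifit3.

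Naive knockout-labelled replicate 3 weighed on several of these values. It was the highest of the 6 naive libraries in 11 members, Ifih1, Ifit1, Oasl1, Mx1, Mx2, Rsad2, Isg15, Herc6, Trim30a, Parp14 and Ifi44, though it was the highest in 26.1% of all tested genes as well. Oasl1 stood at 66.7 CPM there and at 19.7 to 30.1 CPM in the other 5, Isg15 at 21.7 against 6.93 to 10.1, and Rsad2 at 26.4 against 9.39 to 16.2 CPM. It was the lowest of the 6 in 8 members, among them Oas1a, Pml and Sp100, and in 25.5% of all genes. Naive knockout-labelled replicate 2 was the lowest in 16 members, against 15.4% of all genes, and naive wild-type replicate 1 the highest in 14, against 13.1%. Without naive knockout-labelled replicate 3 the interaction value of Oasl1 moved from −0.74 to 0.07 and that of Isg15 from −0.59 to 0.16. The sign of these 2 therefore rests on that replicate. That of Rsad2 moved from −0.45 to −0.06. The naive genotype difference of Isg15 moved from 0.32 to −0.41. Naive knockout-labelled replicate 3 is 1 of the 3 labelled knockout with Gpr34 counts. Its 6 macrophage markers summed to 727 CPM (1139 to 1324 in the other naive libraries) and its 8 dendritic cell markers to 16242 CPM (11311 to 13962), and the part of these in the members' levels was not tested.

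In spleen 39 of the 40 members passed the filter on low counts. Ifnb1 did not, with 2 counts in wild-type spleen 1 and 0 in the other 18. Ranked per kb of exon, wild-type spleens held most of Sp100 at 178 ± 21.6 CPM per kb (SD, n = 10), then Samhd1 at 119 ± 17, Isg20 at 64.9 ± 22.3, Bst2 at 63.1 ± 16.8 and Pml at 57.6 ± 10.6. Isg20, Bst2 and Pml lay within their spread of each other. The order differed from that of naive wild-type dendritic cells, where Isg20 was in place 32 and Mx1 in place 3. In wild-type spleens Isg20 was in place 3 and Mx1 in place 22. Levels of the 2 tissues were scaled apart, so no test was made between them.

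No member was called different between knockout and wild-type spleens by edgeR. By this test 0 of 39 were called, against 0.177% of all 20371 tested genes, and 11 members had an unadjusted p under 0.05 (3541 of all genes). All 11 were higher in knockout spleens, and over the 39 members the median log2 difference was 0.12, with 27 positive, against 0.01 over all genes. With plain library sizes the median of all genes was −0.10 and that of the members 0.01, with 20 of 39 positive and 4 at an unadjusted p under 0.05.

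The 3 members with the smallest p were Daxx, Oas1a and Oasl2. Daxx (chr17:33909414-33915590), a histone chaperone gene of nuclear bodies, ran from 41.3 over a median of 47.5 to 54.9 CPM in wild-type and from 43.0 over 60.3 to 70.3 CPM in knockout spleens. Its log2 difference was 0.30 (SE 0.08, edgeR adjusted p = 0.0969). Oas1a ran from 36.2 over 51.0 to 59.9 CPM and from 43.5 over 67.7 to 86.2 CPM (0.44, SE 0.13, edgeR adjusted p = 0.108). Oasl2 ran from 27.0 over 35.8 to 45.5 CPM and from 31.8 over 46.3 to 67.3 CPM (0.40, SE 0.13, adjusted p = 0.132). The groups overlap in all 3, and knockout spleen 6 is the lowest knockout library in each. Other tests did call Daxx and Oas1a higher. DESeq2 called both with adjusted p-values of 0.0189 and 0.0300 and 2.17% of all genes higher, and limma voom with sample weights called both with 0.0163 and 0.0381 and 1.88% of all genes. Without knockout spleens 4, 6 and 9 edgeR called both, and 0.857% of all genes higher. Without knockout spleen 6 alone edgeR also called Oasl2 (adjusted p = 0.0387), but the share of all genes called in that run is not reported here.

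**Figure D5:**
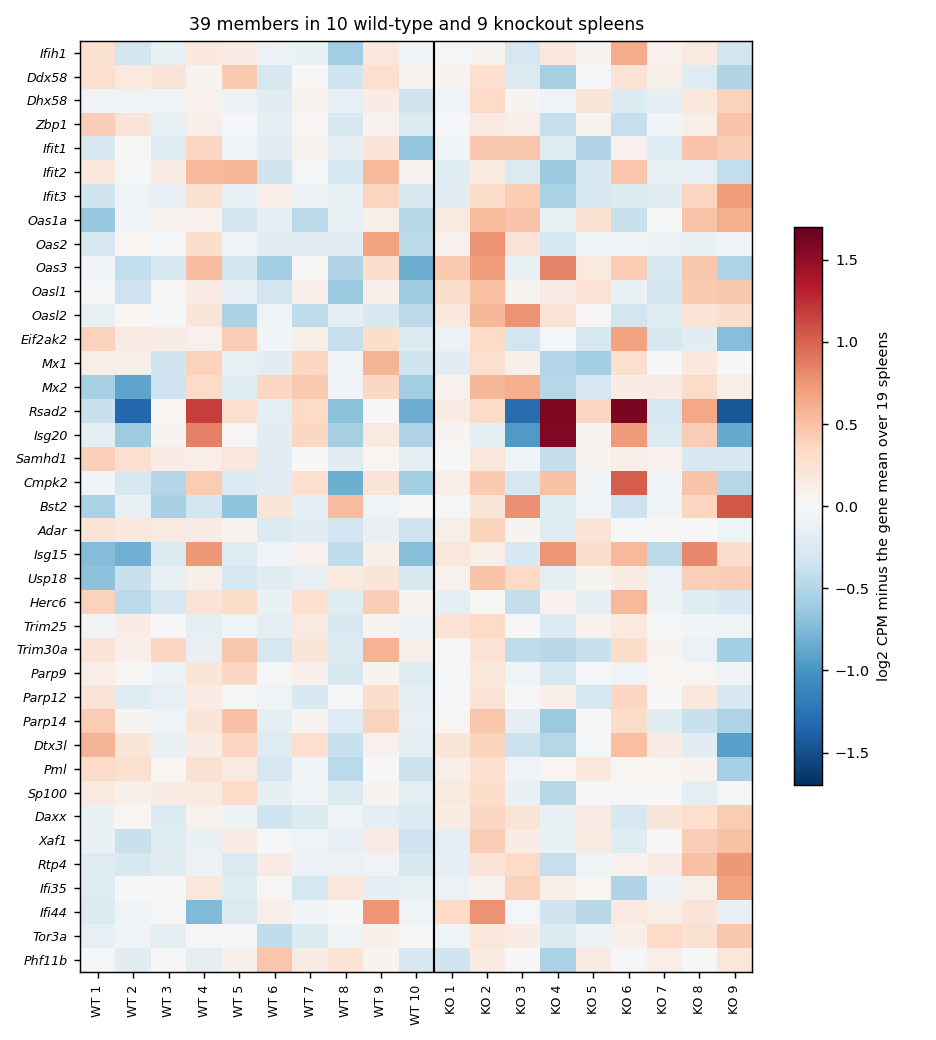
Level of 39 members (rows, in role order) in 10 wild-type (WT) and 9 knockout (KO) spleens (columns), as log2 CPM with a prior count of 2 minus the gene's mean over the 19 spleens. Rsad2 and Isg20 vary most, with knockout spleens 4 and 6 and wild-type spleen 4 high in both.

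Members differed in how widely the spleens of a group spread. Rsad2 was the widest in both groups, with an SD of log2 CPM of 0.71 in wild-type and 1.08 in knockout spleens. It ran from 26.3 over 63.3 to 150.1 CPM in wild-type and from 24.2 over 83.5 to 203 CPM in knockout spleens. The highest were knockout spleens 6 and 4 at 203 and 199 CPM and wild-type spleen 4 at 150.1 CPM. Isg20 was highest in the same 3 spleens, at 358 CPM in knockout 4, 217 in wild-type 4 and 199 in knockout 6, and its SD in knockout spleens was 0.78. Its log2 difference between genotypes was 0.26 (SE 0.28) and reversed without knockout spleen 4. Next in wild-type spleens came Mx2 and Isg15, both with an SD of 0.48, and in knockout spleens Bst2 and Cmpk2 with 0.47 each. Bst2 was high elsewhere, at 129 CPM in knockout spleen 9 and 107 in knockout spleen 3.

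Members that barely varied were Rtp4, Trim25 and Daxx in wild-type spleens, with SDs of 0.12, 0.13 and 0.13, and Parp9, Adar and Trim25 in knockout spleens, with 0.12, 0.17 and 0.18. Trim25 ran from 114 over 131 to 151 CPM in wild-type and from 116 over 135 to 173 CPM in knockout spleens. Of these, Trim25 and Adar, were also among the members least raised by LPS in dendritic cells.

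Some knockout spleens that stood out in members, 4, 6 and 9, also stood out in cell type markers. The erythroid markers summed to 38961 CPM in knockout spleen 4 and to 4262 to 14852 CPM in wild-type spleens, and the 5 B cell markers to 1803 and 1970.3 CPM in knockout spleens 4 and 6 against 2127 to 2514 in wild-type. The 5 pancreas markers summed to 1864 CPM in knockout spleen 6 and 969 CPM in wild-type spleen 4, over ranges of 10.8 to 1928 in knockout and 10.3 to 969 in wild-type spleens. Macrophage markers summed to 629, 939 and 340.3 CPM in knockout spleens 4, 6 and 9 against 413 to 601 in wild-type. Red pulp macrophage markers summed to 656, 889 and 531 CPM there against 473 to 649. The plasmacytoid dendritic cell markers summed to 611, 733 and 831 CPM against 584 to 718, and of them Siglech had 21.2, 109 and 26.0 CPM against 33.5 to 61.5. Knockout spleen 9 was the highest of the 19 in 10 members, among them Bst2, Daxx and Oas1a, as in 19.8% of all tested genes, and had the highest sum of the 8 dendritic cell markers at 24159 CPM. Knockout spleen 2 was the highest in 6 members, against 2.55% of all tested genes. Its erythroid, B cell and pancreas markers summed to 9959, 2418 and 10.8 CPM, within the wild-type ranges. Its dendritic cell markers summed to 16435 CPM, against 10458 to 15940.2 CPM in wild-type spleens, and of them Ccr7 had 51.2 CPM. Itgax, Flt3, Zbtb46 and Cd209a lay within the wild-type ranges there. The part of these markers in the members' levels was not tested. Of the other pathway genes 0 of 32 were called in spleen by edgeR, against 0.177% of all tested genes. An unadjusted p under 0.05 was found for 8 of the 32, against 3541 of all 20371 genes. The 4 with the smallest p were Ikbke with −0.33 (SE 0.08), Irf7 with 0.40 (SE 0.10), Batf2 with 0.43 (SE 0.15) and Irf5 with 0.20 (SE 0.07).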

How the data were processed

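The members, gene lists, comparisons and alternatives were chosen with earlier results of these data known. Each library's deposited file lists unnormalized, whole read counts by Ensembl gene ID. Per the submitters' processing notes the authors used mm9 with bedtools, SAMtools, Bowtie, TopHat 1.3.3 and DESeq, but no role is stated. The sources used here do not give the annotation, the strand setting or the treatment of multiply mapped reads. A gene absent from a file was set to 0. Of the counts up to 200, 57.8 to 62.1% were even, as when both mates of a pair are counted, so counts are not all independent molecules and intervals and floors cover counting error only. Gene places are GRCm38 (GENCODE M21) by Ensembl ID, not mm9.

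edgeR 4.0.16 (R 4.3.3) fitted quasi-likelihood models with TMM scaling, its low-count filter and robust dispersions: 12 dendritic cell libraries in 1 fit (16965 genes), 19 spleens in another (20371). SE was taken as log2 fold change over √F. CPM is counts per TMM-scaled library size. Adjusted p is Benjamini-Hochberg over all tested genes. Alternatives were DESeq2 1.42.0, limma 3.58.1 voom, RLE or plain sizes, no filter, fewer libraries, a replicate block, no haemoglobin genes and 2 surrogate variables (sva 3.50.0). Scripts were tested on simulated data. Every pair of libraries in a group differed by more than sampling noise.

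Genes with per-library values are the 5 largest and 3 smallest changes per LPS comparison, the 3 smallest p elsewhere, the 3 widest and narrowest spreads per spleen group, and the 4 pathway genes with the smallest p, of which some are not reported here. Other named genes, among them Dhx58, the 6 plotted by genotype and those of naive knockout-labelled replicate 3, were chosen after their values were seen.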

Additional observations from a re-analysis of the deposited data

Results flagged for a closer look

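Among 39 members in 2 spleen groups, 3 libraries lay far from the rest of their group by Dixon's test, all in knockout spleens. Since chance flags about 1 in 20 groups, a few flags are expected from 39 members in 2 groups by chance alone. The gap over the range was 0.495 for Oas2, 0.505 for Herc6 and 0.61 for Pml, against a critical value of 0.493. Oas2 stood at 56.3 CPM in knockout spleen 2, with the next at 39.1 CPM. Herc6 stood at 38.6 CPM in knockout spleen 6, with the next at 27.6 CPM. Pml stood at 215 CPM in knockout spleen 9, the lowest, with the next at 307 CPM.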

How the results depend on the processing

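In both LPS comparisons 40 members were called higher under every alternative run, except that in wild-type cells 39 were called with the replicate block and 39 to 40 when 1 library was left out, Ifnb1 being the one lost. The replicate block changed no other count. Correlations of same-numbered libraries ran from −0.089 to 0.075 in dendritic cells and from −0.078 to 0.29 in spleen, where 5 of 9 were over 0.1 and 3 of 9 wild-type spleens correlated best with their own number. The labels do not say what the numbers mark, and the samples were not treated as paired. In spleen, where the main count was 0, 2 members were called higher by DESeq2, 2 by limma voom with sample weights, 2 without knockout spleens 4, 6 and 9, and 0 to 3 when 1 spleen was left out. For the runs with 1 spleen left out, the share of all genes called is not reported here. The cause of these differences was not tested. The interaction value of Isg15 was reversed without naive knockout-labelled replicate 3 (0.16) and without the 3 libraries with Gpr34 counts (0.09), that of Oasl1 without that replicate 3 (0.07), and the spleen difference of Isg20 without knockout spleen 4 (−0.03) and without spleens 4, 6 and 9 (−0.08). With 1 library left out these 3 ran from −0.84 to 0.16, from −0.99 to 0.07 and from −0.03 to 0.40. Of the other values recomputed for single genes, 800 kept direction and side of the threshold and 9 passed it. Depth limits Ifnb1 in dendritic cells, at 9 to 27 counts per LPS library.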
